A study of Mus musculus with 8 samples.

Results

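The 8 genes described here make, break down or sense the endocannabinoids, lipid messengers that neurons release from their membranes. They are Dagla, Daglb, Mgll, Abhd6, Abhd12, Cnr1, Faah and Napepld. All probes with these gene symbols in the array annotation were taken, which gave 17 of the 56605 probes on the array. The set was drawn up with earlier results in view, and Daglb was chosen by its signal on the KO arrays, because 1 of its probes was lower in the KO groups of both mouse lines. The KO differences of Daglb are therefore given as a description, without a test. All 8 genes had probes on the array, among 26894 gene symbols, and on all 8 arrays 16 of the 17 probes gave a signal well above background. The remaining one, the Abhd12 probe A_51_P400009, did so on 0 of 8 arrays and was not tested.

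RNA came from the dentate gyrus, the hippocampal region in which neurons are born throughout adult life, of male C57BL/6 mice at 8 to 9 weeks of age. Derlin-1 control mice carried 2 floxed copies of Derl1, and Derlin-1 KO mice carried in addition Cre recombinase driven by the nestin promoter. Derlin-2 control and Derlin-2 KO mice were built in the same way with floxed Derl2, so every animal carried floxed alleles and the KO groups alone carried Cre. Derlins sit in the membrane of the endoplasmic reticulum and help to clear misfolded proteins. Each of the 4 groups had 2 arrays, and groups were taken from the sample titles, since the genotype given for the KO samples lists nothing but the floxed gene. The nestin promoter acts in the neural lineage, so microglia and vessel cells of the same tissue lie outside the deletion.

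Each line was hybridised on its own slide. A difference between the Derlin-1 and the Derlin-2 arrays cannot be told apart from a difference between slides, whereas KO and control of a line shared a slide. The share of spots with a signal well above background ran from 69.0% to 72.1%, and the 75th percentile of signal from 956 to 1437. Replicate 1 of the Derlin-1 control and replicate 1 of the Derlin-2 control were the brightest arrays of their slides, with 75th percentiles of 1437 and 1312. The Derl2 probes differed by -0.65 and -1.05 on the log2 scale in Derlin-2 KO, with all KO readings below the controls (adjusted p 0.269 and 0.230 in limma), whereas the Derl1 probes differed by -0.20 and 0.46 in the Derlin-1 line and did not settle which of its arrays lack the gene. All 8 markers of dentate granule neurons fixed for a tissue check passed the filter on dim probes. Every marker listed for other cell types passed it too, all 6 of CA pyramidal neurons included. The filter therefore cannot tell the dentate gyrus from neighbouring tissue.

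Endocannabinoids travel backwards across the synapse. In the best known route, receptors coupled to Gq on the receiving neuron activate phospholipase C, and the diacylglycerol that it yields is cut by the diacylglycerol lipases DAGLα (Dagla) and DAGLβ (Daglb) to 2-arachidonoylglycerol (2-AG). 2-AG then binds the cannabinoid receptor CB1 (Cnr1) on the sending axon and lowers transmitter release, until monoacylglycerol lipase (Mgll), ABHD6 or ABHD12 hydrolyses it. Anandamide, the other main endocannabinoid, can be released from its membrane precursor by NAPE-PLD (Napepld) and is broken down by fatty acid amide hydrolase (Faah). In the dentate gyrus CB1 is best known from the axons of cholecystokinin-positive interneurons and of hilar mossy cells.

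Daglb was represented by 4 probes, designed against different transcript records of the gene, and they did not move together. All signals below are log2 values after quantile normalization of the 8 arrays, and a difference is KO minus control on that scale. Levels are compared between arrays for the same probe and never between probes.

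The probe that was lower in both lines was the dimmest of them, A_55_P2715834 (design transcript ENSMUST00000174273). In the Derlin-1 line it read 5.70 and 5.83 on the control arrays and 5.22 and 5.04 on the KO arrays. On the other slide it read 6.41 and 6.47 on the control arrays and 5.57 and 5.80 on the KO arrays. In each line both KO arrays thus lay below both control arrays. Its difference was -0.63 for Derlin-1 KO and -0.76 for Derlin-2 KO, which correspond to signals 1.55-fold and 1.69-fold lower. The group means ranked Derlin-2 control (6.44 ± 0.043, SD, n = 2), Derlin-1 control (5.76 ± 0.092, SD, n = 2), Derlin-2 KO (5.68 ± 0.16, SD, n = 2) and Derlin-1 KO (5.13 ± 0.13, SD, n = 2). The second and the third group of this order overlapped. Of all probes tested, 2.54% had both KO arrays below both controls in each line (17.8% for Derlin-1 KO taken alone and 14.2% for Derlin-2 KO), and since this pattern chose the gene nothing is read from it.

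**Figure D1:**
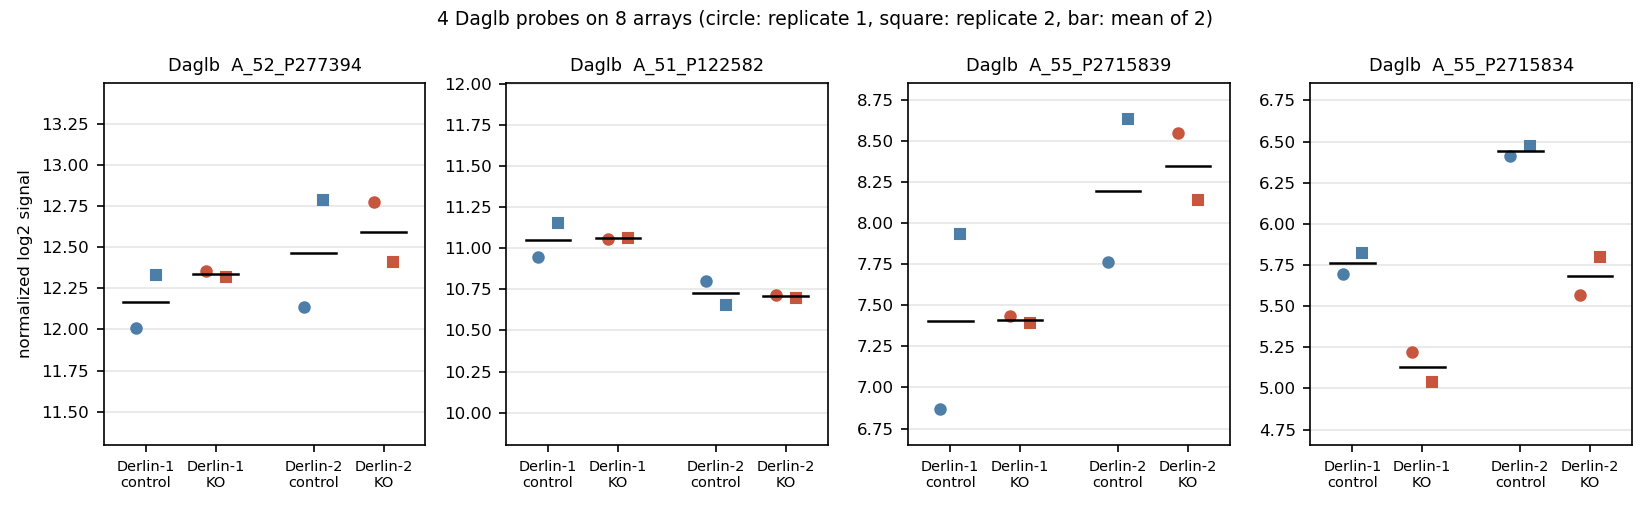
Normalized log2 signal (y axis) of the 4 Daglb probes, 1 panel each with the same span, in the 4 groups (x axis). Circles are replicate 1, squares replicate 2, blue marks control and red KO arrays, and black bars are the means of 2 arrays. The KO arrays lie below the control arrays of both lines for A_55_P2715834, and the groups overlap in both lines for the other probes.

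The brightest Daglb probe, A_52_P277394 (design transcript ENSMUST00000045593), did not share this pattern. It read 12.01 and 12.33 in Derlin-1 control and 12.35 and 12.32 in Derlin-1 KO. In the Derlin-2 line it read 12.14 and 12.79 in control and 12.78 and 12.41 in KO. The groups overlapped in both lines, with differences of 0.16 and 0.13. Both low values came from the control arrays numbered 1, and the differences turned on single arrays. With 1 array left out at a time, the Derlin-1 difference ran from 0.0042 (without control replicate 1) to 0.33 (without control replicate 2). The Derlin-2 difference was -0.19 without control replicate 1, 0.45 without control replicate 2, -0.052 without KO replicate 1 and 0.31 without KO replicate 2. Before normalization the signal of this probe was 5174 and 5073 on those 2 arrays, inside its span of 4969 to 6101 over all 8 arrays. They were also the arrays with the highest 75th percentile of their slides, and the part of that brightness in the probe's normalized values was not tested.

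The probe designed on the RefSeq transcript NM_144915, A_51_P122582, was the steadiest of the 4. Its Derlin-1 arrays read 10.95 and 11.16 in control and 11.06 and 11.06 in KO. Its Derlin-2 arrays read 10.80 and 10.65 in control and 10.71 and 10.70 in KO. The KO differences were 0.0065 and -0.019, each smaller than the spread between its control arrays, and every Derlin-1 array lay above every Derlin-2 array.

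The last probe, A_55_P2715839 (design transcript ENSMUST00000155383), spread most between the replicates of the control groups. It read 6.87 and 7.93 in Derlin-1 control, 7.43 and 7.39 in Derlin-1 KO, 7.76 and 8.63 in Derlin-2 control, and 8.55 and 8.14 in Derlin-2 KO. The groups overlapped in both lines, with differences of 0.0099 and 0.15. After each line's mean was subtracted, this probe followed the brightest one over the 8 arrays, with a Pearson r of 0.88. The dimmest probe did not, with r of -0.33 against A_52_P277394, 0.091 against A_51_P122582 and -0.063 against A_55_P2715839. These correlations describe 8 arrays that share slides and normalization.

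A lower Daglb signal in both KO groups was therefore a property of 1 of 4 probes. Among 62 genes with 4 tested probes and at least 1 lower in both KO groups, 57 (91.9%) had exactly 1 such probe. Nothing particular to Daglb is read from this count. Of the tested probes on the array, 22.0% had a lower mean log2 signal than A_55_P2715834, against 87.0% for A_52_P277394. Averaged over the 4 probes, Daglb differed by -0.11 in Derlin-1 KO and by -0.13 in Derlin-2 KO. That average includes A_55_P2715834, the probe by which the gene was chosen, at -0.63 and -0.76. A_52_P277394, A_51_P122582 and A_55_P2715839 differed by 0.16, 0.0065 and 0.0099 in Derlin-1 KO, and by 0.13, -0.019 and 0.15 in Derlin-2 KO. The average is negative through A_55_P2715834 and is not read as a fall of the gene.

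The raw values of the dim probe show how much signal stood behind its difference. Its background-subtracted signal was 58.8 and 53.8 in Derlin-1 control against 38.7 and 33.3 in Derlin-1 KO. It was 102 and 72.7 in Derlin-2 control against 39.7 and 55.3 in Derlin-2 KO. Agilent Feature Extraction put the error of these signals at 10.7% to 14.2% of the value, against 10% for each reading of the brightest probe. Before subtraction the median brightness of the spot was 72 to 134, against a local background of 25 to 33.5. With normexp background correction of the median spot signal, run here with an offset of 50 added to every signal, the differences were -0.24 and -0.42. Such an offset by itself lowers a log2 difference between signals of 33.3 to 102, so nothing is read from the smaller values. With scaling to the 75th percentile in place of quantile normalization they were -0.50 and -0.75.

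**Figure D2:**
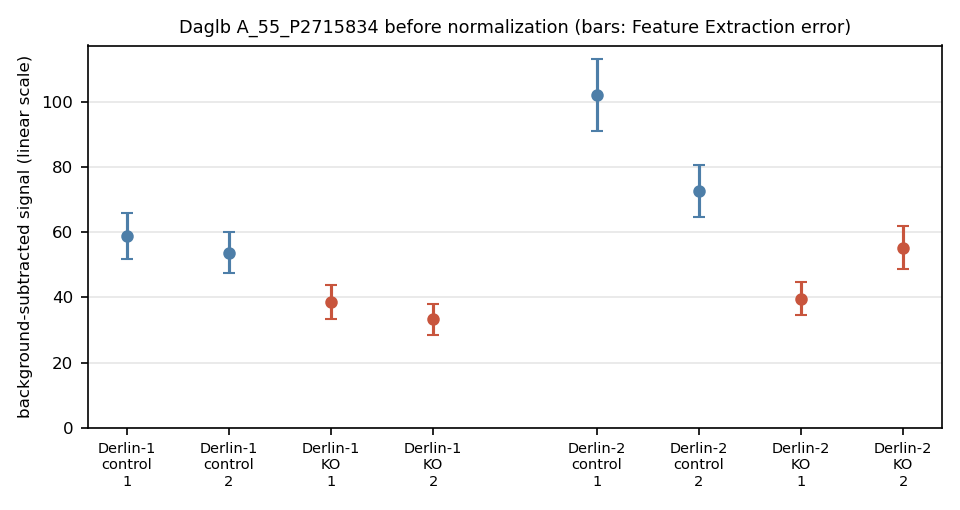
Background-subtracted signal of the Daglb probe A_55_P2715834 before normalization (y axis, linear scale from 0) on each of the 8 arrays (x axis), with bars of 1 Feature Extraction error. Blue points are control and red points KO arrays, and the KO arrays of each slide lie below its control arrays, at 33.3 to 55.3 against 53.8 to 102.

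By the rule set for likeness, the 5 genes whose brightest probes followed A_52_P277394 most closely over the 8 arrays, after each line's mean was subtracted, were Hist1h4c (Pearson r 0.996), Lrp8os2 (0.991), Ppp1r14b (0.982), Rdh5 (0.981) and Chst4 (0.981). They are the closest among 19674 genes compared. Hist1h4c read 8.02 and 7.92 on the control arrays numbered 1 and 8.26 to 8.72 on the other 6 arrays. Those 2 arrays were the brightest on their slides. Within each line, the control array numbered 1 was the lowest for all 5 genes. Across the slides Ppp1r14b and Chst4 were lowest on those 2 arrays. Lrp8os2 and Rdh5 read 4.75 and 9.19 on Derlin-2 control replicate 1, above their Derlin-1 arrays. The genes were picked for following the Daglb probe over these arrays, so nothing is read from their sharing its low values.

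Across the other 7 genes, 12 probes were tested with limma, and 0 of 12 passed an adjusted p of 0.05 in either line or for the difference between them. At an unadjusted p below 0.05 there was 1 probe for Derlin-1 KO, 0 for Derlin-2 KO and 1 for the difference. Over all probes the adjusted threshold was passed by 0%, 0.0352% and 0.00503% in the same order, and the unadjusted one by 4.69%, 5.49% and 5.84%. In each line 4 of the 12 probes, or 33.3%, had KO and control arrays that did not overlap, against 35.7% of all probes for Derlin-1 KO and 31.2% for Derlin-2 KO. In Derlin-1 KO 3 of them lay below and 1 above control, against 17.8% and 17.9% of all probes, and in Derlin-2 KO 1 lay below and 3 above, against 14.2% and 17%. Counts of this size lie near the shares over all probes, and nothing is read from them about the set. The median difference of the 12 probes was -0.12 for Derlin-1 KO and 0.076 for Derlin-2 KO, against -0.021 and 0.0080 over all probes tested. The labels do not say that the 2 arrays of a group came from separate mice, so these p-values measure the spread between arrays, which may be technical in part. The 95% interval lay inside a 1.5-fold change for 8 of the 12 probes of Derlin-1 KO and for 9 of Derlin-2 KO, and for the rest such a change was within reach of the error.

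**Figure D3:**
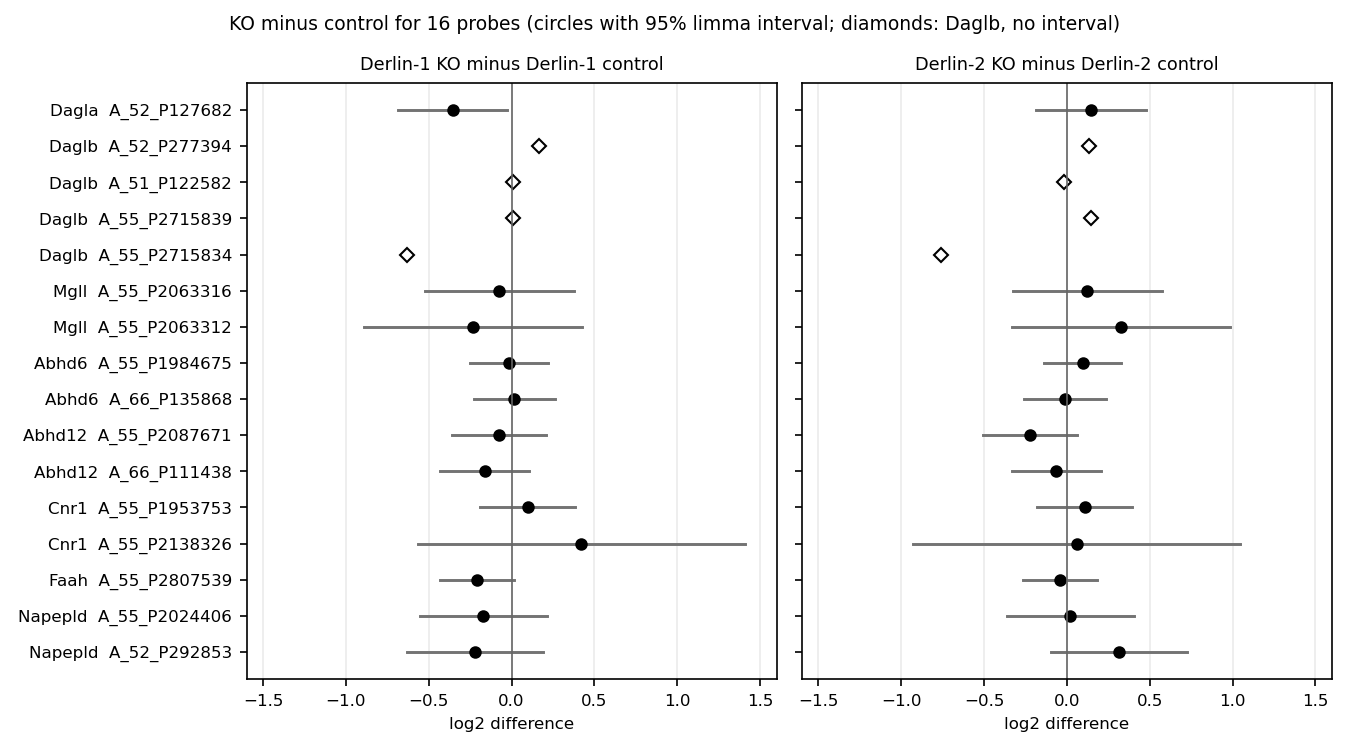
Log2 difference, KO minus control (x axis), of the 16 tested probes (y axis), with Derlin-1 KO on the left and Derlin-2 KO on the right. Circles carry 95% intervals from limma and diamonds are the Daglb probes, given without an interval. In the Derlin-1 line the Dagla interval, from -0.69 to -0.026, is the single one that leaves out 0, and in the Derlin-2 line every interval includes 0.

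Dagla encodes DAGLα, the lipase held to make most of the 2-AG that acts at adult synapses. Its single probe read 13.90 and 13.66 in Derlin-1 control and 13.49 and 13.36 in Derlin-1 KO. For Derlin-2 it read 13.62 and 13.77 in control and 13.93 and 13.76 in KO. Both Derlin-1 KO arrays lay below both controls, whereas the Derlin-2 groups overlapped. The difference was -0.36 (SE 0.14, n = 2 against 2) in the Derlin-1 line, with an unadjusted p of 0.038 and an adjusted p of 0.99995 in limma, so Dagla did not pass the threshold. In the Derlin-2 line it was 0.15 (SE 0.14, adjusted p 0.999 in limma), and 0.060 to 0.23 with 1 array left out at a time, lowest without Derlin-2 KO replicate 1. The KO effects of the lines differed by -0.50 (SE 0.19), with an unadjusted p of 0.039 and an adjusted p of 0.840 in limma, which did not pass the threshold either. Without Derlin-1 control replicate 1, the difference in that line was -0.24, 1.5 times smaller.

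The Dagla values of the Derlin-1 line stand beside those of cell type markers on the same arrays. Of 8 dentate granule neuron markers 6 had a negative KO difference, with a median of -0.18, and their summed signal was 52496 to 72681 in control and 47847 to 60539 in KO. All 6 markers of CA pyramidal neurons, the neighbouring hippocampal field, had a positive difference, with a median of 0.28 and summed signals of 6620 to 10029 in control and 7713 to 12254 in KO. For microglia, 14 of 16 markers had a negative difference, with a median of -0.11 and summed signals of 253710 to 269400 against 252390 to 258230. The mean log2 signal of the microglia markers was 11.81 to 11.92 in control and 11.75 to 11.77 in KO, which do not overlap. In this line 35.7% of all probes had groups that did not overlap. The Gq-coupled receptors and scaffolds listed below also separated by mean log2 signal, at 11.74 to 11.81 in control and 11.62 in KO. So did the arachidonate enzymes and the fatty acid binding proteins, and nothing is read from the separation of the microglia markers. In each of the 3 marker lists the summed signals of control and KO overlapped. In these lists 0 markers passed an adjusted p of 0.05 in limma, and 0 were at background in every group. Their part in the Dagla values was not tested, and in bulk tissue fewer cells of a type and less RNA per cell cannot be told apart.

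Monoacylglycerol lipase, the enzyme that removes most 2-AG in brain, was read by 2 Mgll probes. The brighter probe, A_55_P2063316, read 14.16 and 13.83 in Derlin-1 control and 13.94 and 13.90 in Derlin-1 KO. Its Derlin-2 arrays read 13.92 and 13.46 in control and 13.81 and 13.82 in KO. The KO arrays fell between the controls in both lines, with differences of -0.074 (SE 0.18) and 0.12 (SE 0.18). The second probe, A_55_P2063312, read 11.14 and 10.44 in Derlin-1 control and 10.62 and 10.50 in KO, then 10.64 and 10.13 in Derlin-2 control and 10.64 and 10.79 in KO. Its differences were -0.23 (SE 0.27) and 0.33 (SE 0.27), and its Derlin-2 groups met at 10.64. The Mgll probes followed each other over the arrays (Pearson r 0.92 after each line's mean was subtracted), and both were highest among controls on replicate 1 of each line. Without Derlin-1 control replicate 1 the difference of the brighter probe turned from -0.074 to 0.089, and without Derlin-2 control replicate 2 that of the Derlin-2 line turned from 0.12 to -0.11. The brighter probe lies in rows 337 to 384, the last of the 384 rows of the array, as does the brighter Abhd12 probe. The 2 probes of the whole array with a called difference between the lines lie there too. Any part of array position in the values of single genes was not tested.

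ABHD6 hydrolyses 2-AG on the side of the receiving neuron, and its 2 probes were among the most even of the set. The brighter Abhd6 probe, A_55_P1984675, read 12.11 and 12.19 in Derlin-1 control, 12.14 and 12.13 in Derlin-1 KO, 11.76 and 11.87 in Derlin-2 control, and 11.92 and 11.90 in Derlin-2 KO. Its differences were -0.017 (SE 0.096) and 0.094 (SE 0.096), the latter with both KO arrays just above both controls. The second probe, A_66_P135868, differed by 0.017 (SE 0.10) and -0.013 (SE 0.10), with overlapping groups in both lines. The 95% intervals of these 4 differences ran from -0.26 to 0.33 at most, which leaves out a 1.5-fold change in either direction.

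ABHD12 is a further 2-AG hydrolase, also known as a lysophosphatidylserine lipase. The brighter Abhd12 probe, A_55_P2087671, read 12.12 and 11.92 in Derlin-1 control and 11.95 and 11.93 in Derlin-1 KO. In the Derlin-2 line it read 11.45 and 11.28 in control and 11.11 and 11.17 in KO, with both KO arrays below both controls. The difference in that line was -0.22 (SE 0.12, unadjusted p 0.11, adjusted p 0.976 in limma), and in the Derlin-1 line it was -0.076 (SE 0.12). With 1 array left out at a time the Derlin-2 difference ran from -0.31 to -0.14, the latter without Derlin-2 control replicate 1. The second probe, A_66_P111438, read 10.78 and 10.74 in Derlin-1 control and 10.56 and 10.64 in KO, a difference of -0.16 (SE 0.11, adjusted p 0.99995 in limma). Its Derlin-2 arrays overlapped, at 10.01 and 10.13 in control and 9.92 and 10.10 in KO, a difference of -0.064 (SE 0.11). All 4 Abhd12 differences were negative and none of them passed the threshold, and a different probe separated the groups in each line.

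CB1, the receptor encoded by Cnr1, was read by a bright and a dim probe. The bright probe, A_55_P1953753, read 14.21 and 14.25 in Derlin-1 control, 14.19 and 14.46 in Derlin-1 KO, 14.33 and 14.29 in Derlin-2 control, and 14.43 and 14.41 in Derlin-2 KO. The differences were 0.098 (SE 0.12) and 0.11 (SE 0.12), with overlapping groups in the Derlin-1 line and both KO arrays above both controls in the Derlin-2 line. Its 95% intervals, -0.19 to 0.38 and -0.18 to 0.39, leave out a 1.5-fold change. The dim probe, A_55_P2138326, read 6.75 and 6.71 in Derlin-1 control and 7.01 and 7.29 in KO, a difference of 0.42 (SE 0.41). Its Derlin-2 arrays read 6.89 and 5.80 in control and 6.01 and 6.80 in KO, and this spread gave it an SE of 0.41, the largest of the set. Neither probe passed the threshold in limma.

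Among 12 interneuron markers, cholecystokinin (Cck) included, 10 had a negative KO difference in the Derlin-2 line, with a median of -0.093, where the bright Cnr1 probe differed by 0.11. Their summed signal was 280160 to 281950 in Derlin-2 control and 246930 to 252450 in Derlin-2 KO, which do not overlap. The summed signal of the astrocyte markers separated there too, at 280460 to 296350 in control and 256870 to 267770 in KO. In this line 31.2% of all probes had groups that did not overlap, and nothing is read from the separation. In the Derlin-1 line 7 of the 12 interneuron markers had a positive difference, with a median of 0.041. Their summed signal was 237050 to 237340 in control and 216220 to 242740 in KO. In both lines 0 of the 12 markers passed an adjusted p of 0.05 in limma. Their part in the Cnr1 values was not tested.

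**Figure D4:**
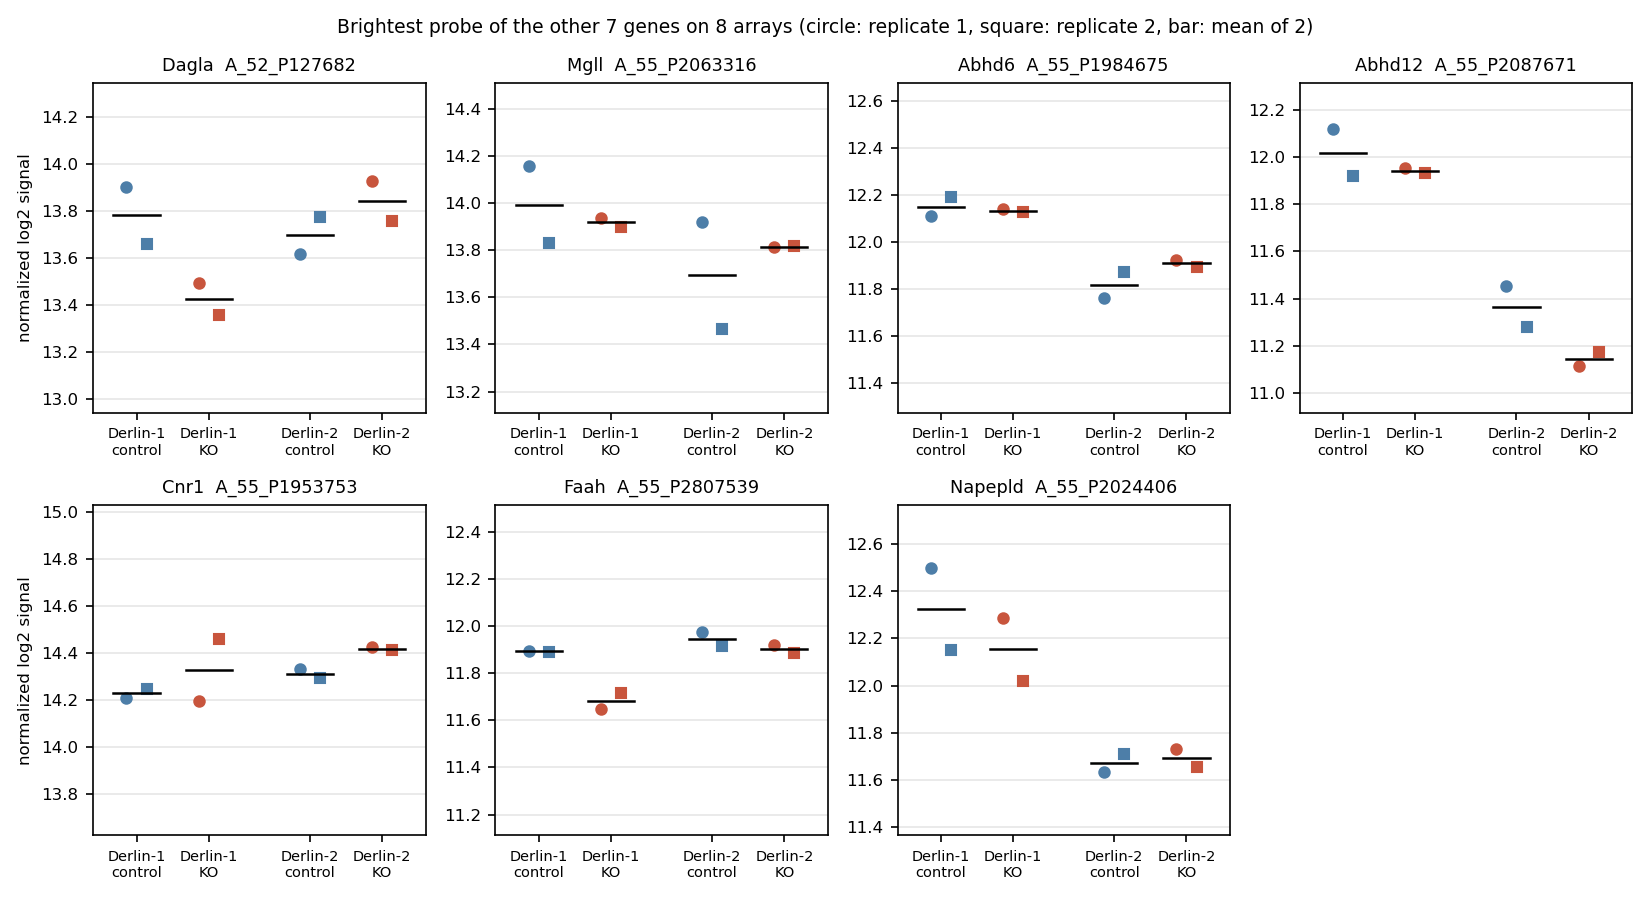
Normalized log2 signal (y axis) of the brightest probe of each of the 7 other genes, 1 panel each with the same span, in the 4 groups (x axis). Circles are replicate 1, squares replicate 2, blue marks control and red KO arrays, and black bars are the means of 2 arrays. Dagla and Faah are lower on the Derlin-1 KO arrays than on their controls, and Abhd6, Abhd12 and Napepld are higher on the Derlin-1 arrays than on the Derlin-2 arrays.

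Faah, whose product breaks down anandamide and related amides, had a single probe with little spread between replicates. It read 11.89 and 11.89 in Derlin-1 control and 11.65 and 11.71 in Derlin-1 KO, then 11.98 and 11.91 in Derlin-2 control and 11.92 and 11.89 in Derlin-2 KO. Both KO arrays lay below both controls in the Derlin-1 line, and the groups overlapped in the Derlin-2 line. The differences were -0.21 (SE 0.092, unadjusted p 0.061, adjusted p 0.99995 in limma) and -0.042 (SE 0.092). The difference between the lines, -0.17 (SE 0.13, adjusted p 0.931 in limma), did not pass the threshold.

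Napepld encodes a phospholipase D that frees anandamide and other N-acylethanolamines. The brighter Napepld probe, A_55_P2024406, read 12.50 and 12.15 in Derlin-1 control, 12.29 and 12.02 in Derlin-1 KO, 11.63 and 11.71 in Derlin-2 control, and 11.73 and 11.65 in Derlin-2 KO. KO and control overlapped in both lines, with differences of -0.17 (SE 0.16) and 0.020 (SE 0.16). The second probe, A_52_P292853, read 8.33 and 7.99 in Derlin-1 control and 8.07 and 7.81 in KO, then 8.02 and 7.91 in Derlin-2 control and 8.16 and 8.40 in KO. Its difference was -0.22 (SE 0.17) for Derlin-1 KO and 0.31 (SE 0.17) for Derlin-2 KO. The KO effects of this probe differed between the lines by -0.54 (SE 0.24, unadjusted p 0.064, adjusted p 0.853 in limma), short of the threshold.

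For some of the genes the lines themselves lay apart. Every Derlin-1 array lay above every Derlin-2 array for both Abhd12 probes, both Abhd6 probes, the brighter Napepld probe and the Daglb probe A_51_P122582, which makes 6 of 16 tested probes. Over all probes, 19.9% had every Derlin-1 array above every Derlin-2 array and 15.3% the opposite, which 0 of the 16 probes showed. Between the control groups, the Derlin-1 level exceeded the Derlin-2 level by 0.65 and 0.69 for the Abhd12 probes, 0.65 for Napepld, 0.33 and 0.23 for the Abhd6 probes and 0.33 for Daglb. Marker levels differed between the lines too. The mean log2 signal of the granule neuron markers was 11.93 to 12.59 on the Derlin-1 arrays and 11.61 to 11.70 on the Derlin-2 arrays, and that of the CA pyramidal markers was 9.31 to 10.43 against 10.48 to 10.86. Line, slide and tissue sampled cannot be told apart here.

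The genes around this set were examined through 8 lists with 73 genes, of which 68 were tested. They cover the other cannabinoid receptors and partners of CB1, the other enzymes of N-acylethanolamines, phospholipase C, the diacylglycerol kinases that compete for diacylglycerol, Gq-coupled receptors with their scaffolds, Gi/o proteins and channels, arachidonate enzymes and fatty acid binding proteins. At an adjusted p of 0.05 in limma, 0 of 68 genes passed in either line, against 0% and 0.0353% of all genes. At an unadjusted p below 0.05, 1 of 68 genes (1.47%) did for Derlin-1 KO and 3 of 68 (4.41%) for Derlin-2 KO, against 4.23% and 4.64% of all genes tested. The median difference of the 68 genes was -0.023 for Derlin-1 KO and 0.016 for Derlin-2 KO, against -0.020 and 0.0078 over all genes.

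In the Derlin-1 line the gene with the smallest p was Chrm3, a Gq-coupled muscarinic receptor. It read 9.61 and 9.40 in control and 9.20 and 8.96 in KO, a difference of -0.43 (SE 0.14, unadjusted p 0.019, adjusted p 0.99995 in limma). Pla2g4a, the cytosolic phospholipase that frees arachidonic acid, read 7.52 and 7.66 in control and 7.23 and 7.18 in KO, a difference of -0.38 (SE 0.16). Cnrip1, which binds the tail of CB1, read 14.14 and 14.15 in control and 13.94 and 13.87 in KO, a difference of -0.24 (SE 0.11). For all 3 the KO arrays lay below the controls, and 0 of them passed the threshold. Of the 68 genes, 14 had both KO arrays below the controls and 13 above, against 17.8% and 17.9% of all probes. Those shares are over probes, whereas each of the 68 genes counts by its brightest probe, so nothing is read from the counts. The 3 genes were picked by their p, so nothing is read from their separation.

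In the Derlin-2 line the smallest p belonged to Plch1, a phospholipase C. It read 7.66 and 7.73 in control and 8.11 and 8.22 in KO, a difference of 0.47 (SE 0.11, unadjusted p 0.0050, adjusted p 0.558 in limma). Fabp7, a fatty acid carrier of astrocytes and neural stem cells, read 12.95 and 12.77 in control and 13.22 and 13.35 in KO, a difference of 0.43 (SE 0.11, adjusted p 0.625 in limma). Alox5, which opens the leukotriene route from arachidonic acid, read 5.94 and 6.45 in control and 7.15 and 6.61 in KO, a difference of 0.68 (SE 0.25, adjusted p 0.855 in limma). The KO arrays lay above the controls for these 3 genes, likewise picked by their p, and none passed the threshold. Of the 68 genes, 14 had both KO arrays above the controls and 5 below, against 17% and 14.2% of all probes. As in the other line, these shares are over probes and not over genes by their brightest probe, and nothing is read from the counts. The probes of Fabp7, Alox5 and Pla2g4a lie in rows 337 to 384 of the array.

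By list, diacylglycerol kinases had 5 of 10 negative differences for Derlin-1 KO and 2 of 10 for Derlin-2 KO, with medians of 0.035 and 0.028. Of the 14 phospholipase C genes 9 had a positive difference in each line, with medians of 0.043 and 0.045. The 9 genes of Gq-coupled receptors and scaffolds had 7 negative differences in the Derlin-1 line (median -0.086) and 4 in the Derlin-2 line (median 0.0042). Of the 9 genes for Gi/o proteins and channels, through which CB1 acts, 8 had a negative difference in the Derlin-1 line (median -0.057) and 4 in the Derlin-2 line (median 0.017). The 11 other enzymes of N-acylethanolamines had 7 negative differences in each line, with medians of -0.067 and -0.083. The 9 tested arachidonate enzymes had medians of 0.012 and 0.054, and the 3 fatty acid binding proteins 0.042 and 0.18. The widest single difference was that of Homer3, a scaffold of Gq-coupled glutamate receptors, at -0.88 (SE 0.44) in the Derlin-2 line, where 1 control spot bore an outlier flag and was left out, so that the control rested on 1 array. Of the cannabinoid-sensitive receptors, Gpr55, Gpr18, Gpr119 and Trpv1 did not pass the filter on dim probes and were not tested, nor was the lipoxygenase gene Alox15. Cnr2, which encodes CB2, passed it and differed by 0.25 (SE 0.20) and -0.047 (SE 0.20). Its probe read 12.76 to 13.64 over the 8 arrays. The sequence of the probe was not checked, so this signal is not read as a level of CB2.

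**Figure D5:**
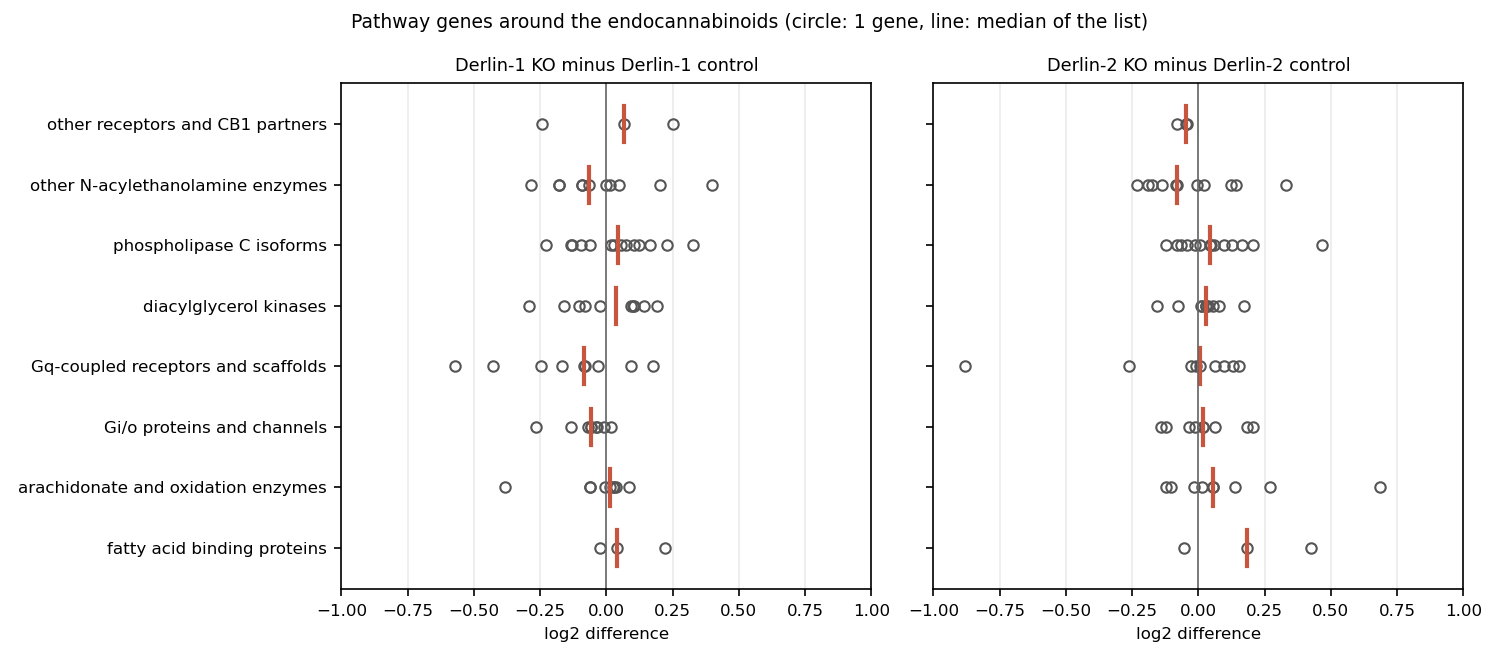
Log2 difference, KO minus control (x axis), of the 68 tested pathway genes in 8 lists (y axis), with Derlin-1 KO on the left and Derlin-2 KO on the right. Each circle is 1 gene by its brightest probe and each red line the median of a list. The medians lie between -0.086 and 0.067 on the left and between -0.083 and 0.18 on the right.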

How the data were processed

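Spot intensities in the deposited scanner files come from a 1-colour Agilent mouse array and were background-subtracted and detrended by Agilent Feature Extraction (version 10.7.1.1, per the labels), with its error and flags. The authors' deposited tables hold log2 values, quantile-normalized in GeneSpring and shifted to each probe's median, which served as an alternative here. Their columns of log2 differences, fold ratios and fold scores were not used. Gene symbols are those of the array annotation. The array design predates the assembly at hand, and no genome coordinates or probe sequences were used here.

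Processed intensities below 1 were set to 1, and their log2 values were quantile-normalized across arrays, as the study's methods name. Control and outlier-flagged spots were left out and spots of a probe averaged. Probes well above background on both arrays of at least 1 group were kept, which left 39937 probes for 19893 genes. limma (version 3.58.1, R version 4.3.3) fitted 4 group means, with 4 residual and 2.08 prior degrees of freedom. Tests were two-sided and adjusted by the Benjamini-Hochberg method over all probes, with a threshold of 0.05. An exact test of 2 arrays against 2 cannot go below 0.333. The number of arrays limits the precision. The steps were tested on simulated data.

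The members and lists were chosen with earlier results of these data known. Named genes are all member probes, with the brightest probe standing for a gene, up to 3 pathway genes of smallest p per line, and the 5 genes most like the brightest Daglb probe. Homer3, Cnr2 and the genes that were not tested were named after their values were seen. Alternatives changed the normalization, background correction, filter, outlier flags, values, arrays in the model, replicate block, call and probe choice.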

Additional observations from a re-analysis of the deposited data

Results flagged for a closer look

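The KO effect differed between the lines for 2 of 39785 probes by limma's test of the difference, at an adjusted p of 0.05. They were A_30_P01025111, which has no gene symbol, and A_66_P116508 (Gm13848), both in rows 337 to 384 of the array, and neither belongs to the endocannabinoid genes. Neither call held up under most alternatives, since 0 probes passed with the replicate block, with normexp or with either other filter on dim probes. Leaving out those rows of the array removes both probes, so that alternative could not keep them. The difference of the KO effects was 4.03 and 5.33 on the log2 scale. For the 12 member probes tested, the smallest adjusted p of that difference was 0.840.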

How the results depend on the processing

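Of 287 tested member values under the alternatives, 0 passed the threshold, the smallest adjusted p in limma was 0.372, 272 kept their direction and 15 turned it, all at small differences. For the difference between the lines, Cnr1 turned from -0.0085 to 0.0042 with normexp on the median spot signal (chosen after seeing the data) and to 0.18 as the mean over probes, and Abhd6 in the Derlin-1 line turned from -0.017 to 0.00016 as the mean over probes. With 1 array left out at a time, values in the Derlin-1 line ran from -0.24 to 0.089 for Mgll, -0.057 to 0.023 for Abhd6, -0.18 to 0.023 for Abhd12, -0.036 to 0.23 for Cnr1 and -0.35 to 0.0042 for Napepld. For Derlin-2 KO they ran from -0.11 to 0.35 for Mgll and -0.019 to 0.059 for Napepld, and for the difference from -0.43 to 0.031 for Mgll and -0.14 to 0.13 for Cnr1. A group with 1 array left was assumed to vary like the others. Of 50 values of the brightest and the dimmest Daglb probe, 5 moved beyond the spread between replicates. For the dimmest probe, leaving out 1 array gave -0.72 to -0.54 in the Derlin-1 line and -0.88 to -0.65 in the Derlin-2 line, and the deposited values gave -0.52 and -0.76.

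Over all probes, the counts past the threshold were 0 (Derlin-1 KO), 14 (Derlin-2 KO) and 2 (the difference). The Derlin-2 count was 2 with normexp and with probes well above background on all 8 arrays, 29 with no filter, 0 with its 4 arrays alone and with the deposited values, and 4 without rows 337 to 384 of the array. The count for the difference was 0 with normexp, with either other filter and without those rows, which hold both of its probes. With the replicate block both counts were 0, and it changed no member's call. The labels do not tie equal numbers across groups, and same-numbered arrays had correlated deviations of 0.27 and -0.098 over 2 pairs a line. Leaving out 1 array gave 0 to 1, 4 to 50 and 0 to 18 probes, with 50 and 18 without Derlin-2 control replicate 1. A fold of 1.5 in place of the adjusted p gave 1829, 2246 and 4721. The causes were not tested. The dimmest Daglb probe was read at 33.3 to 102 units of signal, with an estimated error of 10.7% to 14.2%.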
